A study of Mus musculus with 14 samples.

Results

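Amino acid transporters are membrane proteins of several solute carrier (Slc) families that move amino acids, and for some members taurine or creatine, across the cell surface or out of lysosomes. A set of 30 mouse genes that encode such carriers was followed among the 34452 mouse genes in the data. The set was given as a fixed list of symbols, and each symbol matched 1 gene. It leaves out the cystine exchanger Slc7a11, a known target of Nrf2, and the question was which carriers besides it differ when Nrf2 is overexpressed.

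The measurement was RNA sequencing of the RPE (retinal pigment epithelium), a sheet of pigmented cells on which the photoreceptors rest, in 7 rd1 mice at postnatal day 20. The rd1 strain (FVB/N) lacks functional Pde6b and loses its rods early. Both eyes of every mouse were injected with the adeno-associated virus (AAV) AAV-Best1-GFP, and 1 eye also received AAV-Best1-Nrf2, which carries human Nrf2 cDNA. The Best1 promoter is active in the RPE, and the Nrf2 vector had another capsid (AAV8) than the GFP vector (7M8). The eyes are called Nrf2 and control below, with n = 7 in each group, and libraries carry the number of their mouse. Since the control eye received the GFP vector only, the transgene and the second vector cannot be told apart. The RNA came from eyecups and was amplified, so fewer cells of a type and less RNA per cell cannot be told apart. The samples went through 2 sequencing runs, and the labels do not assign libraries to them. The labels give both eyes of all 7 animals, which were used here, while the methods text of the study counts fewer pairs for this age and does not say which animal was left out.

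The deposited values are read counts per gene, which were taken to be estimated counts, with totals between 16548349 and 50543008 per library. Levels are given below as CPM, counts per 1e+06 counts of a library after its total was scaled by the TMM method. Levels per length are CPM per kilobase of annotated exon and serve only to compare genes with each other. Differences are log2 fold changes, Nrf2 minus control, from a paired edgeR quasi-likelihood fit of all genes, with standard errors (SE) and p-values adjusted by the Benjamini-Hochberg method over all 16290 rows fitted. A gene is called where the adjusted p is under 0.05. The human NFE2L2 transcript of the vector was between 1147 and 9832 CPM in the Nrf2 eyes and between 0.989 and 1161 CPM in the control eyes, where the library labelled control 3 held the highest value. The fitted difference of this transcript was 7.36 (SE 1.74, adjusted p = 0.0598). The library Nrf2 2 assigned 2.55% of its counts to pseudogenes, against 1.06% to 1.17% in the 13 others. All 12 RPE markers were measured, and their summed level was 18492 to 34296 CPM in control eyes and 22028 to 35816 CPM in Nrf2 eyes. Of the 12 differences 5 were positive and 7 negative, with a median of -0.19. The largest part of the sum in Nrf2 eyes was Ttr, with 9675 ± 4729 CPM against 3235 ± 1357 CPM in control eyes (1.58, adjusted p = 0.104). In control eyes it was Rgr, with 6697 ± 3137 CPM against 4333 ± 1607 CPM in Nrf2 eyes (-0.53, adjusted p = 0.57). Rpe65, the retinoid isomerase of the visual cycle, was the 1 RPE marker called, and it fell by 2.17 on the log2 scale (SE 0.37, adjusted p = 0.0199).

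The RPE stands between the blood supply of the choroid and the photoreceptors and carries amino acids in both directions. Carriers for glutamate, cystine, cysteine and glycine bear on glutathione, whose synthesis from those amino acids is under the control of Nrf2. Nrf2 binds antioxidant response elements in DNA, and a second factor, Atf4, binds composite elements together with C/EBP proteins when amino acids run short and is known to act on several carrier genes, Slc7a11 included.

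Of the 30 transporter genes, 1 was called. Slc1a4, which encodes the sodium-dependent exchanger ASCT1 for alanine, serine, cysteine and threonine, rose 16.1-fold in mean level. The other 28 tested did not pass, and Slc38a5 was too low to be tested. The called share was 3.45% of the 29 tested, where the background over all genes was 3.43% (559 of 16289). For higher levels alone the background was 2.94% (479 genes) and for lower levels 0.491% (80 genes). The median difference of the 29 was -0.05, beside -0.04 over all genes, and 13 differences were positive and 16 negative. An unadjusted p under 0.05 was found for 5 of the 29, or 17.2%, beside 18.1% of all genes. Read against these backgrounds, the counts do not set the list apart, and the account below is of its single genes.

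**Figure D1:**
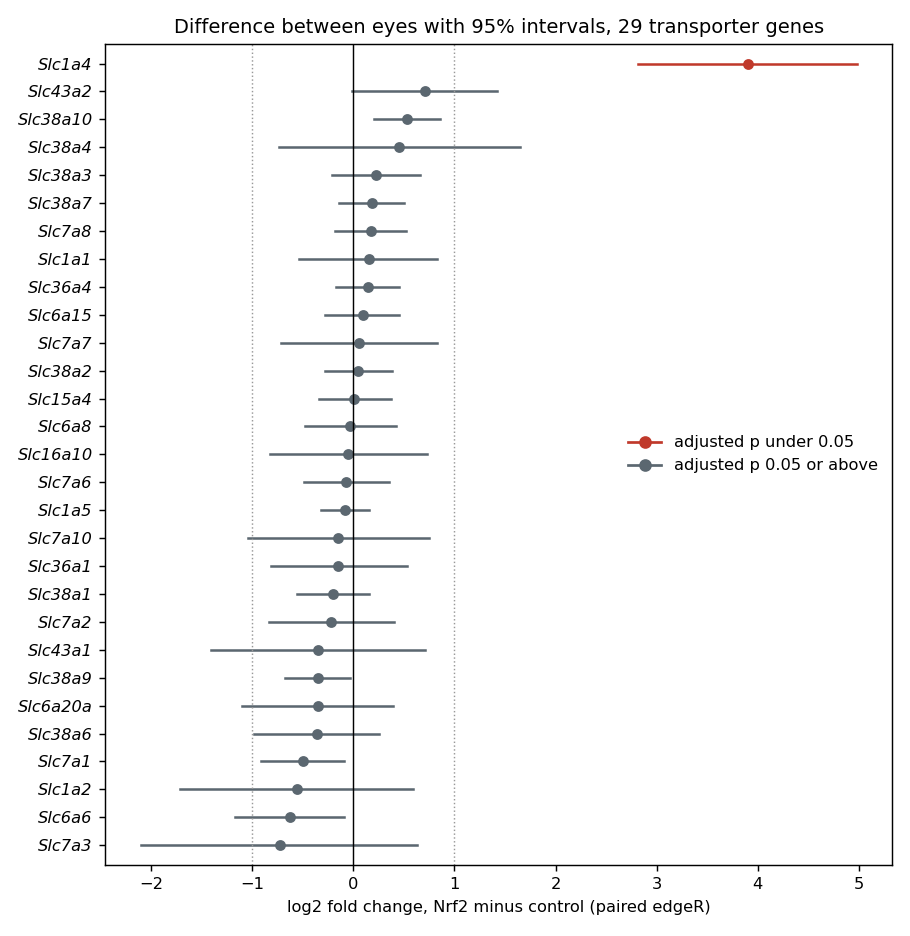
Log2 fold changes of the 29 tested transporter genes, Nrf2 minus control, from the paired fit on 7 mice (points) with 95% intervals (lines). The dotted lines stand at -1 and 1. The interval of Slc1a4 runs from 2.82 to 4.98 and is the only one that lies wholly beyond 1, while 20 of the 29 intervals lie within the dotted lines.

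The 95% intervals are for each gene alone, with no allowance for the number of genes. For 20 of the 29 genes (69%) the interval of the difference lay within 1 log2 unit, or a doubling, on either side of 0. The same held for 58% of all genes tested. The 9 other intervals reached past that bound, Slc1a4 among them, and for the remaining 8 a change of that size lay within the interval.

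Slc1a4 (ENSMUSG00000020142) lies on chromosome 11, from 20302180 to 20332713 on the minus strand (build GRCm38). In control eyes 1 to 7 its level was 14.7, 11, 42.6, 8.39, 20.9, 9.94 and 8.51 CPM. In the Nrf2 eyes of the same mice it was 382, 199, 259.8, 42.8, 195, 195 and 593 CPM. Every Nrf2 eye was higher than every control eye, but the gap was narrow at one place: the lowest Nrf2 library (Nrf2 4, 42.8 CPM) stood beside the library labelled control 3 (42.6 CPM), which lay well above the other controls. Only Slc1a4 among the 29 tested genes had groups that did not overlap, and 1.6% of all genes did.

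The mean of control eyes was 16.6 ± 12.3 CPM and that of Nrf2 eyes 266 ± 175 CPM (SD, n = 7). The fitted log2 fold change was 3.90 (SE 0.48, 95% interval 2.82 to 4.98, adjusted p = 0.00936), and it ranked 34 by size among the 479 genes called higher. The level was higher in the Nrf2 eye in 7 of 7 mice, by 2.34 to 6.11 on the log2 scale. Flipping the signs of the 7 within-mouse differences in all ways, an exact two-sided permutation test, gave p = 0.0156, the smallest that 7 mice allow. The counts behind these values ran from 226 to 28448 per library.

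**Figure D2:**
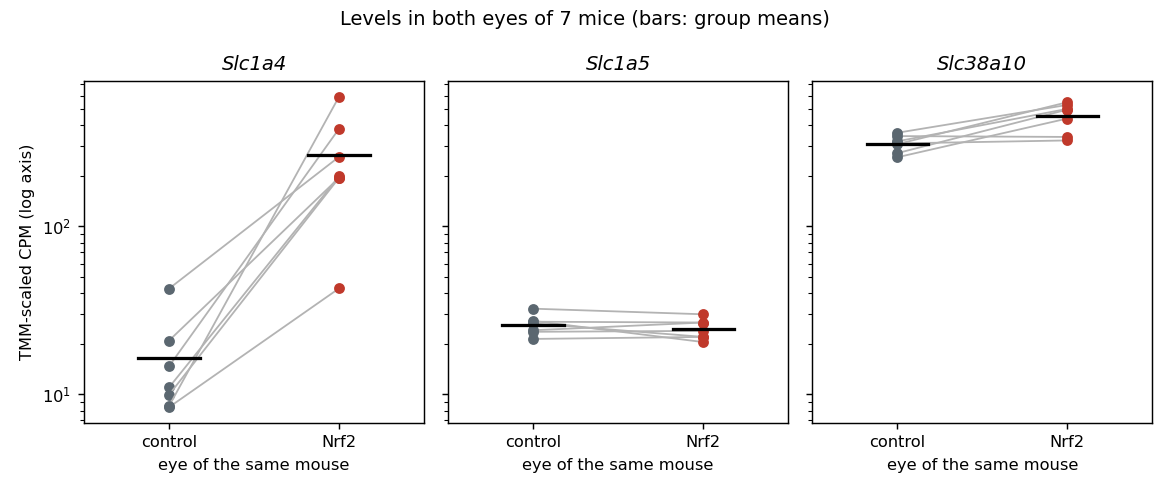
Levels (TMM-scaled CPM, log axis) of Slc1a4, its relative Slc1a5 and Slc38a10 in control (grey) and Nrf2 (red) eyes, with lines joining the eyes of a mouse and bars at the means of 7 libraries. Slc1a4 was higher in the Nrf2 eye in all 7 mice, Slc1a5 stayed between 20.5 and 32.4 CPM in all 14 libraries, and Slc38a10 was higher in 6 of 7 mice.

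Per length, Slc1a4 had a level of 4.22 ± 3.13 in control eyes and held rank 18 of the 30 genes. In Nrf2 eyes it had 67.9 ± 44.7 and rank 4. Its share of the summed level per length of all 30 genes went from 0.774% ± 0.614 to 10.5% ± 6.26 (SD, n = 7). The sum itself was 586 ± 105 in control and 625 ± 103 in Nrf2 eyes. These SDs are over mice, and the within-mouse difference of the sum was not tested. By its group mean Slc1a4 thus moved from the middle of the set to the level of its most abundant carriers. In single Nrf2 eyes its share ran from 1.97% to 22.5%, so the move was not of the same size in each.

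Markers of other cell types were measured in the same libraries. The summed level of 8 cone markers was 43.2 to 920.4 CPM among control and 19.8 to 92.4 CPM among Nrf2 eyes, with 8 of 8 lower and 2 called, and that of 8 rod markers 20.3 to 446 and 7.66 to 90.2 CPM, with none called. Slc1a4 differed in the other direction. The 8 immune cell markers, of which none was called, had 7 positive differences, the direction of Slc1a4, with a median of 0.82 and up to 1.57 for the complement gene C1qb (adjusted p = 0.28). Their summed level (106 to 318 CPM in control eyes, 129 to 478 CPM in Nrf2 eyes) had its largest part in both groups from the other marker, Csf1r, with 174 ± 57.3 and 103 ± 43.7 CPM and a difference of -0.76 (adjusted p = 0.14). The 8 markers of Muller glia had 6 negative differences and none called, with a median of -0.37. The water channel Aqp4 had -1.39 (adjusted p = 0.298) and the potassium channel Kcnj10 -1.59 (adjusted p = 0.496). The 2 positive differences, the direction of Slc1a4, were 0.55 for Glul (adjusted p = 0.0587) and 0.59 for Vim (adjusted p = 0.064). The summed level (5766 to 11114 and 6100.4 to 8787 CPM) was mostly that of Apoe, Rlbp1 and Dkk3. Of these, Rlbp1 is an RPE marker too. Of 11 inner retina markers tested 10 had negative differences and none was called, with a median of -0.77 and sums of 911 to 2546 and 1198 to 2190.1 CPM. Surface epithelium markers summed to 1775 to 58574 CPM in control eyes and to 2349 to 25531 CPM in Nrf2 eyes. Their differences were negative for 8 of 8 (median -1.27). The 7 fibroblast markers had 5 positive differences, the direction of Slc1a4, with a median of 0.31. Their sums were 121 to 712 and 299 to 1003 CPM. Differences were negative for 6 of 8 endothelium, 6 of 6 skeletal muscle and 5 of 5 blood markers (medians -0.21, -0.36 and -0.77). Of the surface epithelium, fibroblast, endothelium, muscle and blood markers none was called. No marker on these lists was at 0 in all libraries, and the part of cell composition in the Slc1a4 difference was not tested.

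Whether Slc1a4 followed the amount of vector transcript was examined in the 7 Nrf2 eyes. Between log2 levels of NFE2L2 and of Slc1a4, Pearson's r was 0.963 (exact permutation p = 0.00179) and Spearman's rho 0.929 (exact permutation p = 0.00675). Slc7a11 was the only other gene tested this way, and adjusted over the pair of relations the p-values for Slc1a4 became 0.00298 and 0.0135 (exact permutation). Without Nrf2 1 and Nrf2 4, the libraries farthest from the median vector level, r was 0.885 (exact permutation p = 0.025, n = 5). The libraries Nrf2 4 and control 3 had nearly the same vector level (1147 and 1161 CPM) and nearly the same Slc1a4 level. Such a relation was common: of the 479 genes called higher, 118 had an r at least that of Slc1a4, and their median r was 0.91. The other 28 tested transporter genes had r from -0.55 to 0.85, with Slc43a2 the highest.

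**Figure D3:**
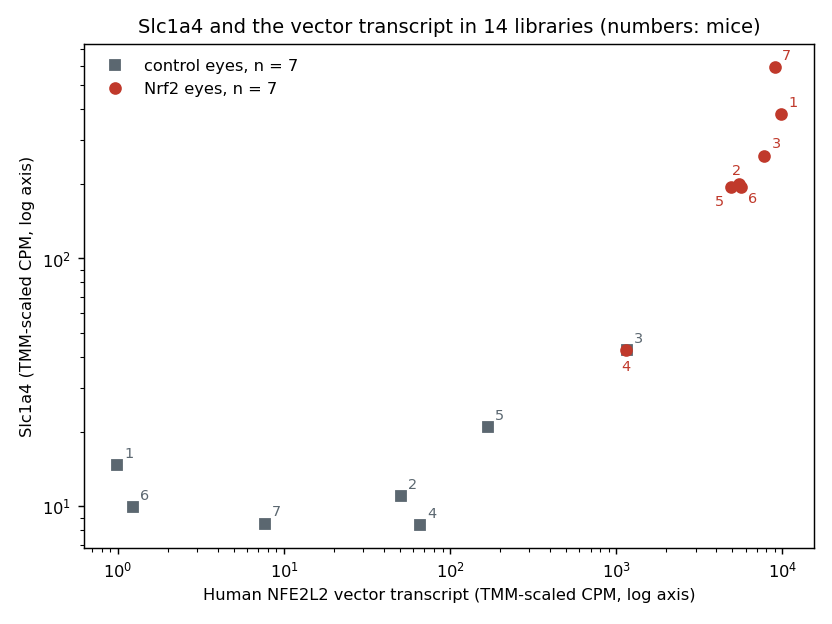
Slc1a4 level against the level of the human NFE2L2 vector transcript (both TMM-scaled CPM on log axes) in 7 control eyes (squares) and 7 Nrf2 eyes (circles), numbered by mouse. The libraries Nrf2 4 and control 3 lie together (1147 and 1161 CPM of vector transcript, 42.8 and 42.6 CPM of Slc1a4), and the other 6 Nrf2 eyes lie above both.

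The start of Slc1a4 is shown beside that of Slc7a11, the carrier known to answer to Nrf2 and Atf4. RefSeq promoter windows (GRCm38.p6, 250 bases before and 50 after the start) were at hand for 22 of the 30 genes, some with more than 1 window. The window of Slc1a4 is chr11:20332664-20332963 and that of Slc7a11 chr3:50443564-50443863, both on the minus strand. They are printed 5′ to 3′ in lower case, with capitals at every match to the octamer TGATGCAA, the letters of an Atf4 and C/EBP composite element, on either strand.
Slc1a4: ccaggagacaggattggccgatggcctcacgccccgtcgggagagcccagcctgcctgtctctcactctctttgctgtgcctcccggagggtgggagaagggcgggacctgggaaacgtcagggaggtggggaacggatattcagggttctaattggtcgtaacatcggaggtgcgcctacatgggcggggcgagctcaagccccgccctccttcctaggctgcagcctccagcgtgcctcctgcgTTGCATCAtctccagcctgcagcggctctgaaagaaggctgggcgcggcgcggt
Slc7a11: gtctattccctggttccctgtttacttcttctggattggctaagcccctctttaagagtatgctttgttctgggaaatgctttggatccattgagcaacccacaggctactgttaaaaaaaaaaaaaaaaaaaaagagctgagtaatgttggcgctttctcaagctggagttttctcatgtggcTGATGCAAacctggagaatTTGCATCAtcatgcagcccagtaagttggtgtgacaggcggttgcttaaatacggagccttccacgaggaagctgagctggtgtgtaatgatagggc
The match of Slc1a4 lies across the start, from base -4 to base 3 on the minus strand of the window. Those of Slc7a11 lie at -66 to -59 and -47 to -40, 1 on each strand. The octamer was looked for after these windows had been read. It was in a window of 2 of the 22 genes (9.09%, Slc1a4 and Slc7a7) and in 0.895% of all 32851 windows of this length (294), and only 2 of all windows held more than 1 match, Slc7a11 being 1 of them. Slc7a7 held the octamer and had a difference of 0.06 (SE 0.34, adjusted p = 0.951). The antioxidant response core TGACNNNGC, searched on both strands, was in a window of 5 of the 22 genes (22.7%: Slc36a1, Slc38a2, Slc43a1, Slc7a1 and Slc7a6), against 12.4% of all windows (4071), and none of these 5 genes was called. It had no match in the windows of Slc1a4 and Slc7a11. The shares of the 22 genes count a gene with a match in any of its windows, and the shares over all are per window. A gene with more than 1 window, such as Slc7a7, had more chances of a match, so the shares are in unlike units. The matches are of letters and show no binding.

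The 3 relatives of Slc1a4 in the Slc1 family were not called. Slc1a5 encodes ASCT2, the exchanger for glutamine and other neutral amino acids that is closest to ASCT1 in function. It was at 26.1 ± 3.53 CPM in control and 24.6 ± 3.41 CPM in Nrf2 eyes, and the interval of its difference (-0.08, SE 0.10, 95% interval -0.32 to 0.15) was the narrowest of the 29. The neuronal and epithelial glutamate and cysteine carrier Slc1a1 was among the 3 genes with the highest level per length, with 677 ± 213 CPM in control and 737 ± 231 CPM in Nrf2 eyes (0.15, SE 0.30, adjusted p = 0.839). The glutamate carrier Slc1a2 was at 55.7 and 39.4 CPM in control 1 and control 4 and between 4.31 and 18.1 CPM in the other 12 libraries (-0.56, SE 0.51, adjusted p = 0.59). Those 2 control libraries also had the highest summed levels of cone markers (851 and 920.4 CPM) and of rod markers (446 and 339.5 CPM), and the part of photoreceptor RNA in the Slc1a2 values was not tested.

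**Figure D4:**
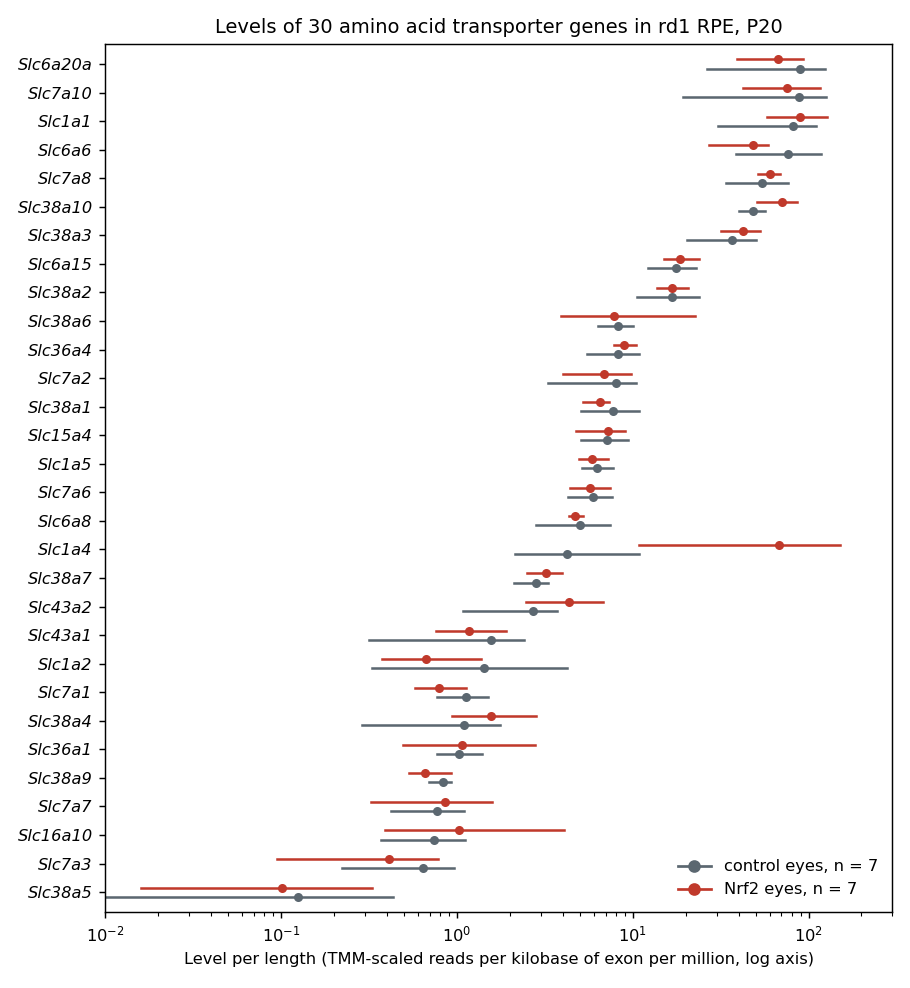
Levels per length (TMM-scaled CPM per kilobase of exon, log axis) of the 30 transporter genes in control (grey) and Nrf2 (red) eyes, ordered by the control mean. Points are means and lines run from the lowest to the highest of 7 libraries, and the line of Slc38a5 in control eyes is cut at the left edge because 1 library was at 0. Slc1a4 goes from 4.22 to 67.9, and the groups of every other gene overlap.

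Among the sodium- and chloride-coupled carriers of the Slc6 family none of 4 was called. Slc6a6, the taurine transporter, on which the RPE and photoreceptors are known to depend, lies on chromosome 6 (91684053 to 91759066). Its level was 327 to 994 CPM in control eyes (median 649.8) and 228 to 496 CPM in Nrf2 eyes (median 451). The groups overlapped, although the Nrf2 eye had the lower value in all 7 mice. In 3 of these mice (3, 5 and 6) the difference was between -0.01 and -0.11, and it reached -1.88 in mouse 2. The fitted difference was -0.63 (SE 0.24, unadjusted p = 0.0277, adjusted p = 0.212), so the gene did not pass over all genes, and the exact sign-flip permutation test gave p = 0.0156. The imino acid carrier Slc6a20a had the highest level per length in control eyes, 88.8 ± 32.7, and 66.7 ± 19.8 in Nrf2 eyes (-0.35, SE 0.33, adjusted p = 0.603). Its paralog Slc6a20b, with which it may share reads, was assigned 3.67 ± 1.22 and 3.12 ± 2.14 CPM, against 363 ± 133 and 272 ± 80.9 CPM for Slc6a20a. The creatine transporter Slc6a8 (-0.03, SE 0.20) and the neutral carrier Slc6a15 (0.09, SE 0.16) had intervals within 0.5 on either side of 0.

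All 3 cationic carriers, which import arginine, lysine and ornithine, had negative differences, and none was called. Slc7a1 (CAT1; chromosome 5, 148327410 to 148399904) was at 13.1 ± 3.19 CPM in control and 9.16 ± 2.01 CPM in Nrf2 eyes, with the Nrf2 eye lower in 6 of 7 mice. Its values ran from 8.83 to 17.2 CPM and from 6.67 to 12.9 CPM, so the groups overlapped. The difference was -0.50 (SE 0.18, unadjusted p = 0.0218, adjusted p = 0.189). Slc7a2 had -0.22 (SE 0.27), and Slc7a3, at 0.358 to 3.65 CPM in all libraries, had -0.73 (SE 0.60), so that its interval from -2.10 to 0.63 bounds little.

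The light subunits of heteromeric exchangers work at the cell surface bound to the heavy subunit Slc3a2 (4F2hc), which Slc7a11 also needs. Of the 4 in the set none was called. Slc7a8 (LAT2), which exchanges large neutral amino acids, was at 272 ± 65.4 CPM in control and 300.5 ± 33.4 CPM in Nrf2 eyes (0.17, SE 0.15). Slc7a10 (Asc-1), which exchanges glycine, serine, alanine and cysteine, was the second highest of the set per length, with 187 ± 76.5 and 159.8 ± 53.6 CPM (-0.15, SE 0.39, adjusted p = 0.882). It varied widely among control eyes, from 40.7 CPM in control 5 to 265 CPM in control 4. Slc1a1 and Slc6a20a were also lowest in control 5, at 251 and 108 CPM, so that 3 of the most abundant carriers of the set were low in that library. In mouse 5 the differences of Slc1a1, Slc6a20a and Slc7a10 were 1.58, 1.32 and 1.98. The low level was not particular to carriers. Among control eyes Rpe65, Rlbp1, Ttr, Lrat, Rgr, Rdh5 and Otx2 were lowest in control 5 too, while the RPE markers Best1, Mitf, Pmel, Tyr and Dct were not. Slc7a6 and Slc7a7 had differences of -0.07 and 0.06.

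In the Slc38 family, sodium-coupled carriers of glutamine, alanine and other small neutral amino acids, Slc38a10 came nearest to the threshold. It lies on chromosome 11 (120103960 to 120151346), and its transport role is less well known than that of its relatives. Its level was 258 to 361 CPM in control eyes (median 312) and 325 to 549 CPM in Nrf2 eyes (median 496). The Nrf2 eye was higher in 6 of 7 mice, and in mice 2 and 4 the eyes differed by 0.06 and -0.01 only. Those were also the Nrf2 libraries that overlapped with the controls. The difference was 0.53 (SE 0.14, unadjusted p = 0.00565, adjusted p = 0.0947). It was called in 4 of 15 alternative settings: without the mouse term, in DESeq2, in voom with quality weights and without mouse 4 (adjusted p = 0.0229, 0.00841, 0.00515 and 0.0246). In those settings 6.75%, 11.9%, 15.9% and 12.2% of all genes were called.

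The other carriers of this family were not called. Slc38a2 (SNAT2), which is known to rise when amino acids run short, was at 147 ± 37.8 and 149 ± 18.7 CPM (0.05, SE 0.15), and the glutamine carriers Slc38a1 and Slc38a3 had differences of -0.20 (SE 0.15) and 0.22 (SE 0.19). Slc38a4 was lowest at 1.23 CPM and highest at 12 CPM, in the control and Nrf2 eyes of mouse 6, and its difference of 0.45 (SE 0.52) carried an interval from -0.74 to 1.65. Slc38a6 was at 176 CPM in Nrf2 2 and between 30.3 and 50.7 CPM in the 6 other Nrf2 eyes, against 49.2 to 77.9 CPM in control eyes (-0.36, SE 0.27). Nrf2 2 is the library with the higher pseudogene share, and the part of that share in its Slc38a6 value was not tested. Slc38a5 (SNAT5) was between 0 and 0.968 CPM in all 14 libraries and was not tested.

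Carriers of the lysosome and of proton-coupled export had small differences, with all 5 intervals within 1 on either side of 0. Slc38a9, the lysosomal arginine sensor that acts on mTORC1, was at 13.9 ± 1.35 CPM in control and 11 ± 2.24 CPM in Nrf2 eyes, lower in 6 of 7 mice. The control libraries lay between 11.5 and 15.5 CPM and the Nrf2 libraries between 8.93 and 15.4 CPM, with Nrf2 2 the highest of the latter. The difference was -0.35 (SE 0.14, unadjusted p = 0.0356, adjusted p = 0.236). It was called only in voom, at -0.41 (adjusted p = 0.0404). Slc38a7, which exports glutamine and asparagine from lysosomes, had 0.18 (SE 0.14), the proton-coupled carriers Slc36a4 and Slc36a1 had 0.14 (SE 0.14) and -0.15 (SE 0.30), and the histidine and peptide carrier Slc15a4 had 0.01 (SE 0.16).

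Of the 3 facilitated carriers of large neutral and aromatic amino acids, 1 had an interval within 1 on either side of 0, and none was called. Slc43a2 (LAT4) had the second largest positive difference of the set, 0.71 (SE 0.31, unadjusted p = 0.0516, adjusted p = 0.279). It was at 10.9 to 37.3 CPM in control eyes and 24.9 to 67.7 CPM in Nrf2 eyes, higher in 6 of 7 mice, and it was called only in voom (0.98, adjusted p = 0.0398). Slc43a1 (LAT3) had -0.35 (SE 0.46) and Slc16a10, the aromatic amino acid carrier, -0.05 (SE 0.34). Slc16a10 was at 29.9 CPM in Nrf2 2 and between 2.87 and 5.23 CPM in the 6 other Nrf2 eyes.

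Mouse by mouse, Slc1a4 had a larger positive difference than any other transporter gene in all 7 animals. The next largest was a different gene in most of them, and it ranged from 0.76 (Slc1a2, mouse 3) to 3.23 (Slc38a4, mouse 6). The median difference of the tested set within a mouse was between -0.23 (mouse 4) and 0.39 (mouse 6). Only Slc1a4 was higher in the Nrf2 eye of every mouse, and only Slc6a6 was lower in every mouse.

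**Figure D5:**
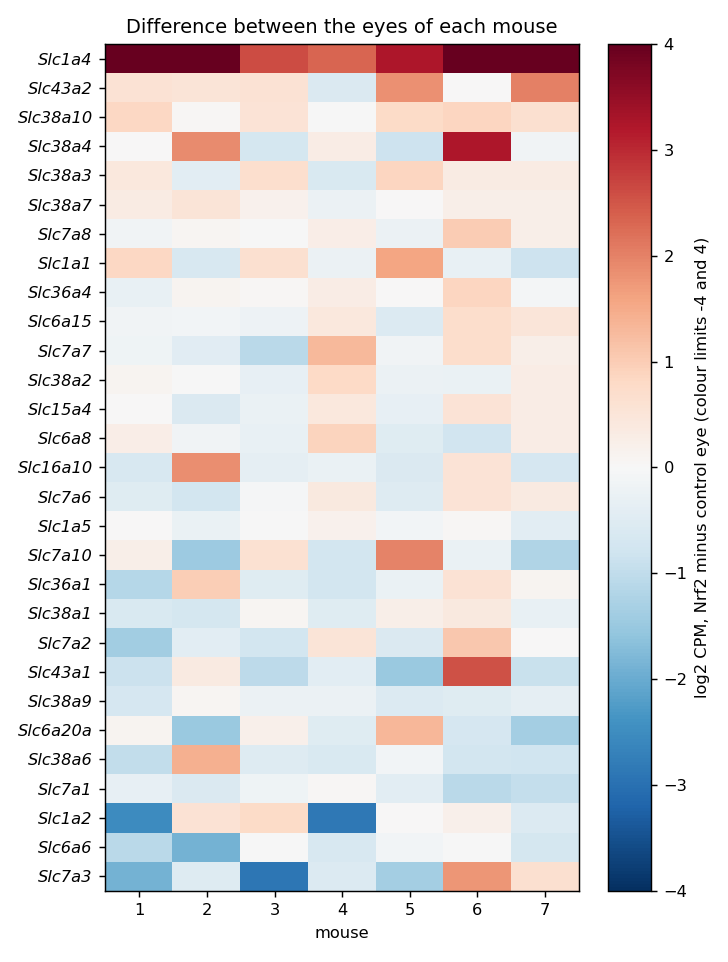
Difference between the Nrf2 and the control eye (log2 CPM) of each of 7 mice for the 29 tested transporter genes, ordered by the fitted difference. Red is higher and blue lower in the Nrf2 eye, and colours are limited at -4 and 4. The row of Slc1a4 is red throughout, with 2.34 to 6.11, and no other row has 1 colour in all mice except Slc6a6, which is lower in 7 of 7.

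For comparison, 43 further genes of amino acid and peptide carriers were listed, of which 33 could be tested. Of these 1 was called (3.03%, beside 3.43% of all genes), and the median difference was -0.09. That gene was Slc7a11, which imports cystine in exchange for glutamate. It rose from 40 ± 15.9 CPM to 267 ± 121 CPM, with groups that just did not overlap (14.7 to 65.3 and 65.5 to 428 CPM), by 2.68 (SE 0.33, adjusted p = 0.00936) and in 7 of 7 mice. In each mouse the difference of Slc1a4 was larger than that of Slc7a11. Over the 7 Nrf2 eyes the r of Slc7a11 with the vector transcript was 0.978 (exact permutation p = 0.00298) and rho 0.857 (exact permutation p = 0.0238). It was 0.852 (exact permutation p = 0.0917) without Nrf2 1 and Nrf2 4.

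The partner Slc3a2 was at 513 ± 69.6 CPM in control and 677 ± 109 CPM in Nrf2 eyes, higher in 7 of 7 mice by 0.08 to 0.83. Its difference of 0.40 (SE 0.13, unadjusted p = 0.013) did not pass over all genes (adjusted p = 0.148), but did in DESeq2 (adjusted p = 0.0106) and voom (adjusted p = 0.0223). The large neutral exchanger subunit Slc7a5 (LAT1) had 0.12 (SE 0.17, adjusted p = 0.739). An unadjusted p under 0.05 was found for 5 of the 33 (15.2%), a share below the 18.1% of all genes. Besides Slc7a11 and Slc3a2 these had negative differences: Slc1a7 (-2.41, adjusted p = 0.155), Slc6a13 (-1.24, adjusted p = 0.12) and Slc15a2 (-0.65, adjusted p = 0.25).

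A list of 18 genes of the response to amino acid shortage, in which Atf4 acts, was read from the same fit, since several carriers are known to belong to it. All were tested and 1 was called (5.56%, beside 3.43% of all genes), with a median difference of -0.09. Cebpb, which encodes a partner of Atf4 on composite elements, rose from 53.6 ± 14.3 to 109 ± 32.6 CPM (1.01, SE 0.20, adjusted p = 0.0345), with the higher level in the Nrf2 eye of each mouse. The call was lost without mouse 1, 3, 5 or 7, without mice 3 and 4 together (adjusted p = 0.0745, in a fit that called 4.51% of all genes) and without the filter on low counts (adjusted p = 0.0568). An unadjusted p under 0.05 was found for 7 of the 18 (38.9%, beside 18.1% of all genes), 3 of them with positive and 4 with negative differences. Besides Cebpb, the positive ones were Sesn2, a sensor that restrains mTORC1 (0.87, SE 0.23, adjusted p = 0.0905), and the serine synthesis enzyme Psph (0.34, SE 0.15, adjusted p = 0.265). The negative ones were Atf4 itself (-0.30, SE 0.12, adjusted p = 0.24), the mitochondrial folate enzymes Shmt2 (-0.64, SE 0.20, adjusted p = 0.136) and Mthfd2 (-0.68, SE 0.23, adjusted p = 0.173), and the glutathione-degrading enzyme Chac1 (-1.31, SE 0.49, adjusted p = 0.21). The asparagine synthetase Asns had -1.08 (SE 0.58, adjusted p = 0.368).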

How the data were processed

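RNA-seq libraries from 14 eyes of 7 rd1 mice were analysed, paired by the number of the individual in the labels. The authors amplified RPE RNA by a low-input protocol, aligned reads to mm10 with Ensembl release 91 annotation, and quantified transcripts with Salmon (version 0.9.1 in the submitters' processing notes). The deposited table holds whole-number estimated counts without normalization between libraries. That they come from Salmon rather than from the counts of aligned reads the study also made was inferred from the rows present. Salmon assigns reads that fit several near-identical genes by a statistical model.

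Differences were tested with edgeR (4.0.16, in R 4.3.3) by its quasi-likelihood F-test on a design of mouse plus treatment, with TMM normalization, filterByExpr by group (minimum count 10) and Benjamini-Hochberg adjustment over 16290 rows, of which 16289 were mouse genes and 1 the vector transcript, which was never counted. SEs were derived from the F statistic. Adjusted p-values are from this fit where no other is named. The mouse term follows the labels: the eyes of a mouse correlated in their deviations from the group means by 0.0524, 0.00306, 0.0121, -0.455, 0.368, -0.292 and 0.174 in mice 1 to 7. Alternatives were no mouse term, RLE and upper-quartile scaling, DESeq2 1.42.0, voom with quality weights (limma 3.58.1), no filter, a mean of at least 10 counts, each mouse left out, and mice 3 and 4 left out. Exon lengths were from GENCODE M21 and promoters from RefSeq.

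Members and lists were chosen with earlier results of these data known. All 30 members are accounted for. Those called are given library by library, and those with an unadjusted p under 0.05 and the 3 highest per length with their values. Of the other lists, called genes and Slc7a11, Slc3a2 and Slc7a5 are named. The remaining genes given with values there, Atf4, Sesn2, Psph, Shmt2, Mthfd2, Chac1, Asns, Slc1a7, Slc6a13 and Slc15a2, were picked after their values were seen. The same holds for Ttr and Rgr among the RPE markers and for Glul, Vim, Aqp4 and Kcnj10 among those of Muller glia. The SD given covers mice and counting together, and depth limits mainly the genes under 5 CPM.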

Additional observations from a re-analysis of the deposited data

Results flagged for a closer look

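Dixon's test of the highest or lowest library in a group was run on CPM without a log scale. It covered 68 groups of 7 libraries for the 30 transporter genes, Slc7a11, Slc3a2, Slc7a5 and the vector transcript, and it marked 10. About 1 in 20 groups is flagged by chance where values are normally distributed. Whether the CPM values are was not tested, so the 10 cannot be read against that rate.

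The library labelled control 3 had 42.6 CPM of Slc1a4, where the other control eyes had 8.39 to 20.9, and 1161 CPM of the human NFE2L2 vector transcript, where they had 0.989 to 168. Without mice 3 and 4 the difference of Slc1a4 was 4.49 (SE 0.43, adjusted p = 0.00404). These mice had the smallest within-mouse differences of Slc1a4 (2.61 and 2.34). A higher value without them thus follows from the choice of mice and is no further test of the difference.

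The library Nrf2 2 stood apart for 4 genes: 176 CPM of Slc38a6 (others 30.3 to 50.7), 29.9 CPM of Slc16a10 (others 2.87 to 5.23), 15.6 CPM of Slc36a1 (others 2.77 to 7.23) and 0.735 CPM of Slc38a5 (others 0.0358 to 0.333). This library had the smallest total and the highest pseudogene share, and the part of either in these values was not tested.

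Slc38a5 was at 0.968 CPM in control 6 (others 0 to 0.395). Slc3a2 was lowest in control 6 at 373 CPM (others 491 to 574) and highest in Nrf2 7 at 899 CPM (others 557 to 700.4). Slc7a5 was lowest in control 5 at 113 CPM (others 152 to 176).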

How the results depend on the processing

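Slc1a4 was called in all 15 alternatives, with log2 fold changes of 3.56 to 4.49 and adjusted p up to 0.0383. The highest fold change was that without mice 3 and 4, which had the smallest Slc1a4 differences. Of the 29 tested transporter genes, 17 kept 1 sign in all 15, and 4 were called in any. The called genes among all tested, 559 in the paired fit, numbered 1100 with no replicate block (mouse term), 1943 in DESeq2, 2592 in voom, 347 without a filter and 111 to 1998 with 1 mouse left out (143, 387, 164, 1998, 155, 240 and 111 without mice 1 to 7). Of the 29 transporter genes, 2 were called with no replicate block, 2 in DESeq2, 4 in voom and 1 to 2 with 1 mouse left out, the upper value without mouse 4. Over all genes the called share was 6.75% with no replicate block, 11.9% in DESeq2, 15.9% in voom and 12.2% without mouse 4. The counts of each list are to be read beside these shares. Other carriers called (33 tested in the paired fit) numbered 2, 5, 5 and 1 to 3 in the same settings. Genes of the Atf4 list called (18 tested in the paired fit) numbered 2, 5, 5 and 0 to 4, and 0 without a filter. The 3 carriers and 4 Atf4 list genes were also reached without mouse 4, and the 0 without mouse 1, 3, 5 or 7. The median of all genes lay between -0.07 and 0.05 in every setting.

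Signs turned only for genes that were not called. With no replicate block Slc36a1 was at 0.05 and Slc16a10 at 0.48. In voom Slc6a15 was at -0.05, Slc6a20a 0.04, Slc7a7 -0.13, Slc7a10 0.36, Slc38a2 -0.06, Slc38a4 -0.18 and Slc15a4 -0.06. Without mice 3 and 4 Slc36a1 was at 0.06, Slc38a2 -0.02, Slc16a10 0.07 and Slc15a4 -0.01. With 1 mouse left out, Slc1a1 ran from -0.09 to 0.31, Slc6a8 from -0.18 to 0.08, Slc6a15 from -0.03 to 0.19, Slc7a6 from -0.18 to 0.04, Slc7a7 from -0.15 to 0.26, Slc7a10 from -0.47 to 0.08, Slc36a1 from -0.34 to 0.02, Slc38a2 from -0.08 to 0.13, Slc16a10 from -0.34 to 0.07, Slc15a4 from -0.09 to 0.11 and Slc7a5 from -0.01 to 0.21. The cause of these shifts was not tested.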
